A study of Mus musculus with 15 samples.

Results

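Expression of 10 transcription factors that govern the T cell lineage was examined in T cell leukemia lines from mice: *Gata3*, *Bcl11b*, *Tox*, *Satb1*, *Runx1*, *Runx3*, *Zbtb7b*, *Gfi1*, *Ets1* and *Myb*. The 10 were taken from a list of names, and all 10 were among the 12545 genes listed in the table. RNA was sequenced from 15 untreated lines of the FVB/NJ strain, 1 library per line, each grown from thymic cells of moribund mice. In 7 lines, named SKO and a number, the genotype was *E2a*-/-. The other 8, named DKO, were E2a-/-LefF/F LckCre+, so both groups lacked *E2a*, the gene (*Tcf3*) of a basic helix-loop-helix E protein, and in the DKO mice Cre driven by *Lck* was to remove *Lef1*, which encodes an HMG-box factor of the TCF/LEF family. *Lck*-driven Cre acts in T cell progenitors from the DN2 stage on, so *Lef1* was present in earlier cells. The ages of the mice are not given for single lines, and there was no line with intact *E2a*.

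These factors act at successive steps of T cell development. After Notch signals reach a progenitor in the thymus, GATA3 and TCF1 start the T cell program, BCL11B closes off other fates, and RUNX1, ETS1, MYB and GFI1 keep the developing thymocytes growing, surviving and rearranging their receptor genes. SATB1 and TOX act as cells pass through the CD4+CD8+ stage. RUNX3 and ThPOK, the product of *Zbtb7b*, then oppose each other in the choice between CD8 and CD4 fates. The comparison of DKO with *E2a*-/- lines asks whether leukemias that arose without *Lef1* carried these regulators at another level than leukemias that arose with it.

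Values are in CPM, the read count of a gene scaled to the depth of its library, and fold changes are differences of mean log2(CPM + 1), DKO minus *E2a*-/-. The listed genes held between 4847970 and 21681586 reads per line. In the least sequenced line, DKO79.9, 3 reads make 0.618 CPM, and in the deepest line they make 0.138 CPM. The T cell label was checked by the summed level of 11 T cell identity genes, among them the CD3 chains, *Lck* and *Zap70*, which was 3278 to 5681 CPM in DKO lines and 2277 to 5432 CPM in *E2a*-/- lines, while none of 6 B cell markers was among the genes analysed here. *Lef1* stood at 103 to 210 CPM in the 8 DKO lines and at 668 to 1558 CPM in 6 of the 7 *E2a*-/- lines. SKO132 stood apart: it had 59.0 CPM of *Lef1* although it is labelled *E2a*-/-, 31.3 CPM of *Notch1* against at least 830 CPM in each other line, and the lowest T cell identity sum. *Tcf3* reads were present at 117 to 243 CPM in all 15 lines, and with 1 value per gene, deleted and retained exons cannot be told apart. In such bulk samples, fewer cells that use a gene and less RNA per cell cannot be told apart either. Since SKO132 differs in this way and DKO79.9 was shallow, results that turn on them are given with and without both.

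**Figure D1:**
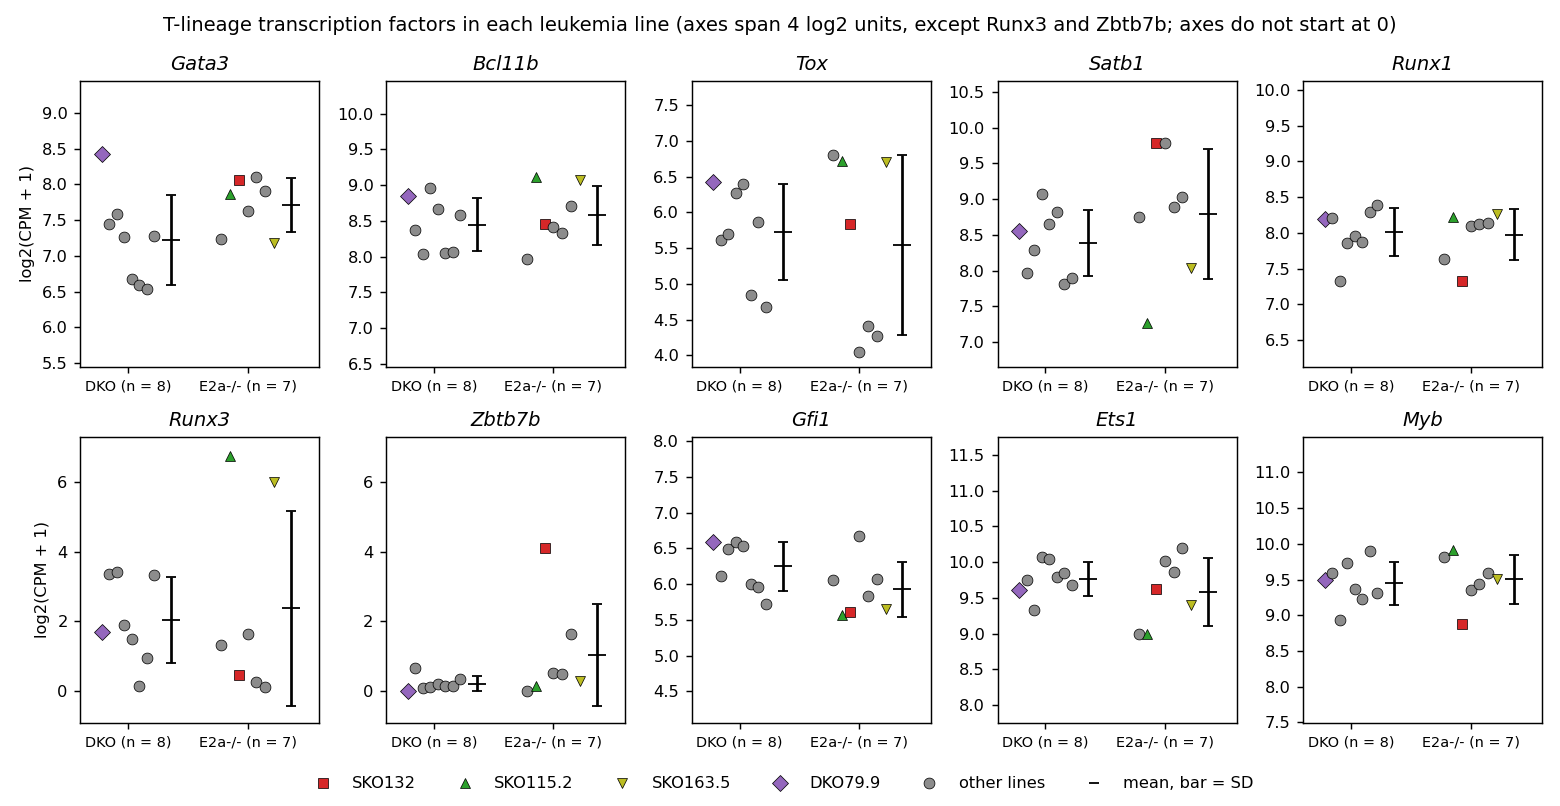
Level of each of the 10 factors in each line, on a log2(CPM + 1) axis, for 8 DKO and 7 E2a-/- lines; each point is 1 line, and the bar is the mean with its SD. In every panel the DKO points overlap the E2a-/- points, and the points of Runx3 and Zbtb7b reach far above their groups in SKO115.2, SKO163.5 and SKO132.

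The 2 factors of T cell commitment were well expressed in every line. *Gata3*, a zinc finger factor needed from the earliest T cell progenitors on (listed on chromosome 2, 9778705 to 9811661, minus strand), had 91.9 CPM in the lowest DKO line, a median of 153 and 343 in the highest. In *E2a*-/- lines it ran from 144 CPM through a median of 233 to 274. Only 1 of the 8 DKO lines, DKO79.9, lay above the *E2a*-/- median, and DKO241, DKO548 and DKO713 lay below every *E2a*-/- line at 101, 95.2 and 91.9 CPM, yet the groups overlapped. The means were 162.8 ± 82.0 CPM (SD, n = 8) and 215 ± 52.8 CPM (SD, n = 7). The log2 fold change of *Gata3* was -0.49 (SE 0.26, 95% confidence interval -1.04 to 0.06), with an adjusted p of 0.551 in limma and an exact permutation p of 0.0973. Without DKO79.9 it was -0.66 with an adjusted p of 0.201 in limma.

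*Bcl11b*, the zinc finger factor that marks commitment (chromosome 12, 109148613 to 109241812, minus strand), ran from 262 CPM through a median of 356 to 494 in DKO lines. In *E2a*-/- lines the lowest value was 248, the median 350.0 and the highest 552 CPM. The groups spanned nearly the same range, and the 2 highest values, 552 and 534 CPM, were those of SKO115.2 and SKO163.5. The means of 358 ± 91.3 CPM (SD, n = 8) and 394 ± 113 CPM (SD, n = 7) gave a log2 fold change of -0.13 (SE 0.19, 95% confidence interval -0.53 to 0.28). The difference was not past the threshold, with an adjusted p of 0.850 in limma and an exact permutation p of 0.529. With 1 line left out the log2 fold change of *Bcl11b* lay between -0.23 without SKO95 and -0.038 without SKO115.2.

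Promoter sequence of these genes is shown because the lines lack 2 factors that bind DNA, E2A in all lines and LEF1 in DKO lines. E proteins bind E boxes, CANNTG, of which CAGCTG is a common form, and TCF/LEF factors bind CTTTGAA or CTTTGAT. These letters were searched on both strands in RefSeq windows of 300 bases, 250 before and 50 after an annotated start, on GRCm38.p6. A match to CAGCTG is also a match to CANNTG. Of the 10 genes, 8 matched the RefSeq table, with 16 windows in all, of which 2 of *Satb1* overlap each other and share an E box. The TCF/LEF letters were found in 1 of the 16 windows (6.25%), that of *Bcl11b*, and in 8.65% of 32851 mouse windows of the same length (CTTTGAA 5.14%, CTTTGAT 3.73%). The letters CAGCTG were found in 2 of the 16 windows (12.5%), 1 of *Gata3* and 1 of *Satb1*, against 16.3% of all windows, and CANNTG in 13 of the 16 (81.2%) against 72.3%. A match says only that the letters are in the window. The *Gata3* window is chr2:9878551-9878850, minus strand, with its E box in capitals, beginning 1 base before the start. The *Bcl11b* window is chr12:108003365-108003664, minus strand, with CTTTGAA in capitals 89 bases before the start.
Gata3 promoter: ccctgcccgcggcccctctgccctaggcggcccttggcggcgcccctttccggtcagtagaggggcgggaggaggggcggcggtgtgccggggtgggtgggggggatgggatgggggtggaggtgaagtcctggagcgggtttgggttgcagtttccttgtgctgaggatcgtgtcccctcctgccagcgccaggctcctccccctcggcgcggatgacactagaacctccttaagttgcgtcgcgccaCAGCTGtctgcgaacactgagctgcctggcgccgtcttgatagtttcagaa
Bcl11b promoter: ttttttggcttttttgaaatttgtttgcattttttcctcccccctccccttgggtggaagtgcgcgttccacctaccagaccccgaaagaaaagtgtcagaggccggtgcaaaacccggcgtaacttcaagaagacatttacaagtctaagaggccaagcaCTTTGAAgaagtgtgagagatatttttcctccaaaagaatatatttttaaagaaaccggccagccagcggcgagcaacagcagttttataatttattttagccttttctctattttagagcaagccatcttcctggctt

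Of the 4 factors that sustain thymocytes, *Ets1* and *Myb* had the most reads for each kilobase of exon. *Ets1*, the ETS-family factor (chromosome 9, 32443806 to 32565405, plus strand), ran from 640.0 CPM through a median of 873 to 1072 in DKO lines, and from 507 through 785 to 1175 in *E2a*-/- lines. The lowest values were those of SKO95 and SKO115.2, at 507 and 508 CPM, and the highest was that of SKO186.5, so the *E2a*-/- lines enclosed the DKO lines. The means were 879 ± 141 CPM (SD, n = 8) and 802 ± 258 CPM (SD, n = 7). For *Ets1* the log2 fold change was 0.18 (SE 0.18, 95% confidence interval -0.21 to 0.57, adjusted p = 0.757 in limma, exact permutation p = 0.360). It was 0.083 without either SKO95 or SKO115.2 and 0.28 without SKO186.5.

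*Myb*, a regulator of proliferation and survival in blood cell progenitors and thymocytes (chromosome 10, 20844736 to 20880790, minus strand), was between 488 and 951 CPM in DKO lines, with a median of 691, and between 467 and 966 CPM in *E2a*-/- lines, with a median of 729. The 2 lowest lines were SKO132 and DKO170.2, 1 from each group. *Myb* was the member with the smallest spread over the 15 lines on the log2(CPM + 1) scale, with an SD of 0.31. Its means were 709 ± 147 CPM (SD, n = 8) and 741 ± 164.0 CPM (SD, n = 7), and the log2 fold change was -0.06 (SE 0.16, 95% confidence interval -0.40 to 0.28). It did not pass the threshold (adjusted p = 0.928 in limma, exact permutation p = 0.729).

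*Runx1*, the Runt-domain factor of early thymocytes that acts with CBFβ (chromosome 16, 92601712 to 92826311, minus strand), ran from 159.7 CPM through a median of 269 to 333 in DKO lines and from 159 through 278 to 307 in *E2a*-/- lines. As for *Myb*, DKO170.2 and SKO132 were the lowest of their groups, and the groups covered the same range. The means were 263 ± 56.2 CPM (SD, n = 8) and 256 ± 55.7 CPM (SD, n = 7). The log2 fold change of *Runx1* was 0.04 (SE 0.17, 95% confidence interval -0.32 to 0.40, adjusted p = 0.960 in limma, exact permutation p = 0.837).

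*Gfi1*, a zinc finger repressor that acts in early thymocytes (chromosome 5, 108145674 to 108155056, minus strand), had 51.6 CPM in the lowest DKO line, a median of 78.8 and 95.3 in the highest. The *E2a*-/- lines ran from 46.4 CPM through a median of 56.3 to 101. Of the DKO lines 7 of 8 lay above the *E2a*-/- median, but the highest value of all was that of SKO137.1, an *E2a*-/- line. With means of 76.9 ± 17.6 CPM (SD, n = 8) and 61.9 ± 19.1 CPM (SD, n = 7), the log2 fold change was 0.32 (SE 0.18, 95% confidence interval -0.06 to 0.71). This was not past the threshold, at an adjusted p of 0.566 in limma and an exact permutation p of 0.113. In DKO241 the genes of chromosome 5 as a whole were higher than their median over the lines by 0.41 on the log2 scale, and *Gfi1* differed by 0.27 once each line's shift of its chromosome was subtracted (adjusted p = 0.622 in limma). Under the 28 other settings the log2 fold change of *Gfi1* ran from 0.12 to 0.45.

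*Satb1* and *Tox* act at the passage through the CD4+CD8+ stage. *Satb1*, a chromatin organizer that folds thymocyte genes into loops (chromosome 17, 51875512 to 51972615, minus strand), ran from 225 CPM through a median of 342 to 537 in DKO lines and from 153 through 471 to 885 in *E2a*-/- lines. Both extremes were *E2a*-/- lines: SKO115.2 was lowest, and SKO132 and SKO137.1 were highest at 884 and 885 CPM. The means were 348 ± 112 CPM (SD, n = 8) and 515 ± 282 CPM (SD, n = 7). The log2 fold change of *Satb1* was -0.41 (SE 0.34, 95% confidence interval -1.13 to 0.31, adjusted p = 0.704 in limma, exact permutation p = 0.281), and it was -0.27 without SKO132 and DKO79.9. Leaving out SKO115.2 alone gave -0.66 (adjusted p = 0.529 in limma), and leaving out SKO132 or SKO137.1 alone gave -0.24.

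*Tox*, an HMG-box factor of CD4 T cell and innate lymphoid development (chromosome 4, 6613500 to 6918704, minus strand), ran from 24.6 CPM through a median of 54.1 to 84.7 in DKO lines. The *E2a*-/- lines ran from 15.5 CPM through a median of 56.2 to 111. They lay at both ends with SKO132 between: SKO137.1, SKO186.5 and SKO156.6 were the 3 lowest of all lines, at 15.5, 18.4 and 20.2 CPM, and SKO95, SKO115.2 and SKO163.5 the 3 highest, at 111, 105 and 103 CPM. The means of 56.6 ± 23.4 CPM (SD, n = 8) and 61.3 ± 44.2 CPM (SD, n = 7) gave a log2 fold change of 0.18 (SE 0.47, 95% confidence interval -0.83 to 1.19). The adjusted p was 0.924 in limma and the exact permutation p 0.727. With SKO156.6 and SKO186.5, the pair of libraries with the highest rank correlation, averaged to 1 line, the log2 fold change was -0.02, so no direction is given for *Tox*.

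The 2 factors of the CD4 and CD8 choice were low in most lines, with a few high ones. *Runx3*, the Runt-domain factor of CD8 cells (chromosome 4, 134676567 to 134733905, plus strand), ran from 0.115 CPM through a median of 2.49 to 9.70 in DKO lines. In *E2a*-/- lines the lowest value was 0.0948 CPM, the median 1.52 and the highest 105. SKO115.2 had 105 CPM (2032 reads, 95% Poisson interval 101 to 110) and SKO163.5 had 63.4 CPM (1180 reads, interval 59.9 to 67.2), and the intervals cover counting error only. The lower of these 2 was 6.54-fold above the next line, DKO170.2 at 9.70 CPM, which DKO102.4 and DKOTu3 followed at 9.29 and 9.15 CPM. At the other end, DKO548, SKO156.6 and SKO186.5 had 2 or 3 reads each and were not told apart from 0. The means were 4.49 ± 4.12 CPM (SD, n = 8) and 24.7 ± 42.5 CPM (SD, n = 7). The log2 fold change of *Runx3* was -0.33 (SE 1.01, 95% confidence interval -2.47 to 1.81, adjusted p = 0.933 in limma, exact permutation p = 0.757). It was 0.40 without SKO115.2 and 0.28 without SKO163.5, so no direction is given. On recovered reads the estimate was -2.43 in edgeR's quasi-likelihood test (adjusted p = 0.522), -2.46 in its likelihood ratio test (adjusted p = 0.301) and -2.46 in DESeq2 (adjusted p = 0.304).

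RefSeq holds 2 promoter windows for *Runx3*, shown because its level differed most among the lines. E boxes are sites of E2A, which all 15 lines lack, and CANNTG was in 72.3% of mouse windows. A link of these letters to the level of *Runx3* was not tested. The upstream window is chr4:135120395-135120694 and the downstream one chr4:135152295-135152594, both on the plus strand of GRCm38.p6, with the E box of each, CAGGTG and CACTTG, in capitals. Neither held CAGCTG or the TCF/LEF letters. The table gives 1 value per gene, so use of the 2 starts cannot be told apart.
Runx3 upstream promoter: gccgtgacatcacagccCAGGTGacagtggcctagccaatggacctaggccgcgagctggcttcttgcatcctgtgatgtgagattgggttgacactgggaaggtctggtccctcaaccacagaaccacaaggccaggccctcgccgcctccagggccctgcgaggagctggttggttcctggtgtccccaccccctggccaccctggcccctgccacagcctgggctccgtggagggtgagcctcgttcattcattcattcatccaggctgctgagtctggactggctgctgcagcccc
Runx3 downstream promoter: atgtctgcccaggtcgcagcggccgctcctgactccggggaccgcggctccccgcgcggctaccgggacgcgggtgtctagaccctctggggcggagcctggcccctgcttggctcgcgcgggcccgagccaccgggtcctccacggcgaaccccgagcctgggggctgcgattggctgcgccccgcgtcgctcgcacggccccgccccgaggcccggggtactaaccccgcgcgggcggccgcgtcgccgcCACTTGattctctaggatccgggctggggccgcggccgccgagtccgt

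*Zbtb7b*, which encodes the CD4-lineage factor ThPOK (chromosome 3, 89181566 to 89198698, minus strand), was at or near 0 in most lines. DKO lines ran from 0 CPM through a median of 0.106 to 0.587, and *E2a*-/- lines from 0 through 0.414 to 16.3. Of the 15 lines, 8 had 3 reads or fewer, 6 DKO and 2 *E2a*-/-, and DKO79.9 and SKO95 had 0. SKO132 had 16.3 CPM (295 reads, 95% Poisson interval 14.5 to 18.2), 7.80-fold above SKO186.5 at 2.09 CPM (44 reads). The means were 0.172 ± 0.184 CPM (SD, n = 8) and 2.79 ± 5.99 CPM (SD, n = 7).

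The log2 fold change of *Zbtb7b* was -0.81 (SE 0.49, 95% confidence interval -1.85 to 0.23), with an adjusted p of 0.591 in limma and an exact permutation p of 0.0721. Without SKO132 and DKO79.9 it was -0.27. On reads recovered from the CPM values the log2 fold change was -3.81 in edgeR's quasi-likelihood test (adjusted p = 0.221), -3.91 in its likelihood ratio test with tagwise dispersions (adjusted p = 0.0211) and -3.91 in DESeq2 (adjusted p = 0.0312), all above the threshold of 0.01 in p. Of the 2 lines highest in *Zbtb7b*, SKO132 had 1.16 CPM of *Cd4* and SKO186.5 had 44.2 CPM, the highest of the 15.

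Over the 10 factors, none was called by limma at an adjusted p under 0.01, where 0.0478% of the 12545 genes were. None had an unadjusted limma p under 0.05 either, against 10.2% of all genes, and none had an exact permutation p under 0.05. With array weights, limma had 1 member (*Gata3*) at an unadjusted p under 0.05, with 1726 of the 12545 genes. The 2 groups overlapped for all 10, whereas overlap was missing for 0.175% of all genes. In the other tools 0 of 10 passed 0.01 as well, where the quasi-likelihood test called 0.00797% of all genes, the likelihood ratio test 1.24% and DESeq2 1.41%. At an unadjusted p under 0.05 the quasi-likelihood test had 1 member (*Zbtb7b*) with 10.8% of all genes, and the likelihood ratio test and DESeq2 had 2 each (*Zbtb7b* and *Runx3*) with 8.93% and 13.0%. By estimate 4 members were higher and 6 lower in DKO lines. Their median log2 fold change was -0.09 against -0.02 for all genes, and the median of its size was 0.25 against 0.16. A p above the threshold does not show equal levels: the confidence intervals leave room for differences of more than 1 log2 unit for *Gata3*, *Tox*, *Satb1*, *Runx3* and *Zbtb7b*.

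**Figure D2:**
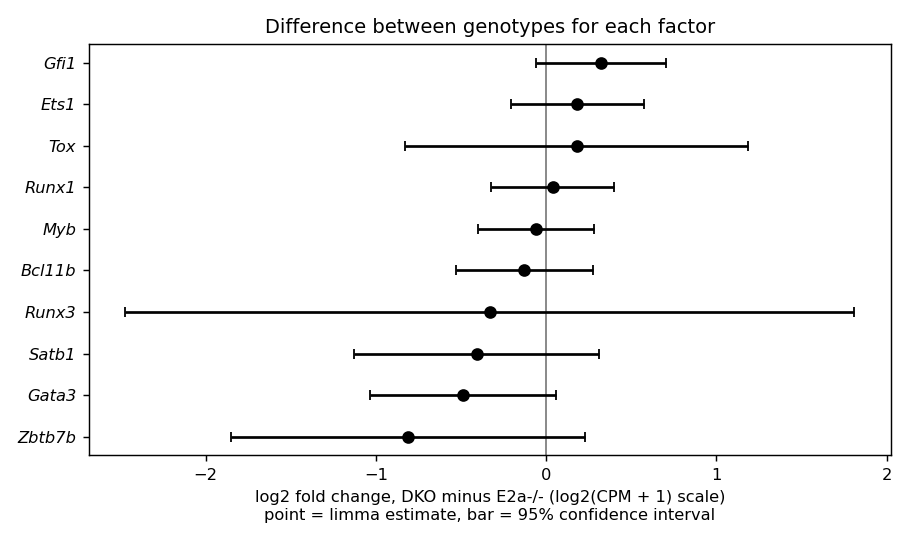
Log2 fold change of each factor, DKO minus E2a-/-, on the log2(CPM + 1) scale; the point is the limma estimate over 8 and 7 lines and the bar its 95% confidence interval. All 10 intervals include 0, and the widest, that of Runx3, runs from -2.47 to 1.81.

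Levels can be ranked only for each kilobase of sequence. Divided by the length of the gene's merged exons, the median over the 15 lines was 101.9 CPM per kilobase for *Ets1* and 80.9 for *Myb*. *Gata3* and *Bcl11b* followed at 43.6 and 43.1, then *Runx1* at 23.1, *Satb1* at 21.1 and *Gfi1* at 20.7. *Tox* had 7.39, *Runx3* 0.423 and *Zbtb7b* 0.0285 CPM per kilobase. Some neighbours in this order were not separated: *Gata3* was above *Bcl11b* in 8 of 15 lines, *Runx1* above *Satb1* in 6 and *Satb1* above *Gfi1* in 6. *Bcl11b* was above *Runx1*, and *Gfi1* above *Tox*, in 15 of 15 lines, and *Ets1* was above *Myb* in 12. With the gene widths that the table lists, *Myb* came before *Ets1*, *Bcl11b* before *Gata3* and *Tox* before *Gfi1*.

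The spread among lines was unequal among the factors. The SD of log2(CPM + 1) over the 15 lines was 2.03 for *Runx3*, 1.05 for *Zbtb7b*, 0.96 for *Tox*, 0.71 for *Satb1* and 0.57 for *Gata3*, against a median of 0.37 over all genes, and 7 of the 10 members were above that median. For *Runx3* 1.95% of all genes had a larger SD, for *Tox* 15.2% and for *Gata3* 29.9%. The SD was larger among *E2a*-/- than among DKO lines for 9 of the 10 members, all but *Gata3*, while this held for 41.6% of all genes. It held for 7 of 10 members and 36.9% of all genes without SKO132 and DKO79.9, and for 7 of 10 and 37.8% without SKO115.2 and SKO163.5. The SDs in DKO and *E2a*-/- lines were close for *Runx1* (0.339 and 0.355), *Myb* (0.303 and 0.342), *Bcl11b* (0.368 and 0.413) and *Gfi1* (0.341 and 0.389). The difference in spread was not tested.

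**Figure D3:**
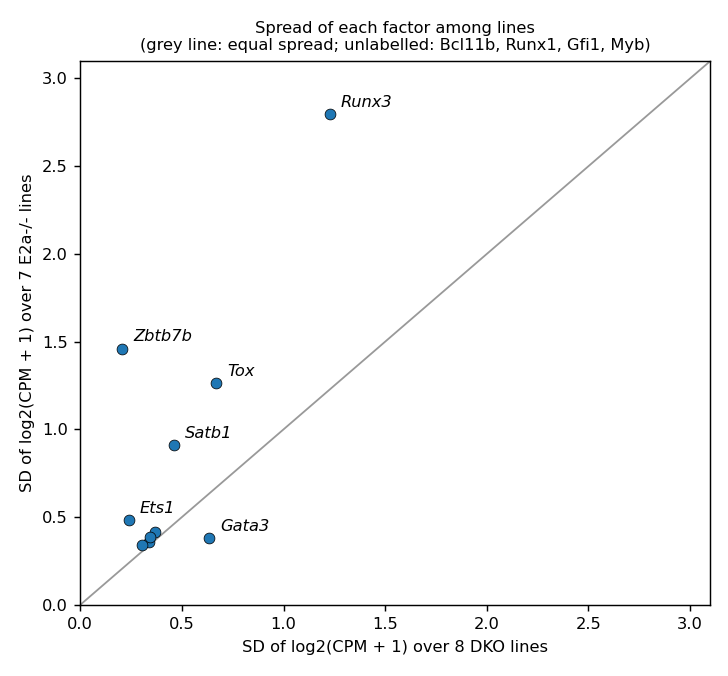
SD of log2(CPM + 1) of each factor among the 8 DKO lines (horizontal axis) and among the 7 E2a-/- lines (vertical axis); each point is 1 factor and the grey line marks equal spread. All points but 1 lie above the line with Runx3 farthest from it, and Gata3 is the 1 below.

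Several lines held the highest or lowest values of more than 1 factor, and others held none. SKO115.2 was the highest line for *Bcl11b*, *Runx3* and *Myb* and the lowest for *Satb1* and *Gfi1*. SKO132 was highest for *Zbtb7b* and lowest for *Runx1* and *Myb*, SKO137.1 was highest for *Satb1* and *Gfi1* and lowest for *Tox*, and SKO95 was highest for *Tox* and lowest for *Bcl11b* and *Ets1*. In all, the *E2a*-/- lines, 7 of the 15, held 8 of the 10 highest and 8 of the 10 lowest values. The lowest value of *Zbtb7b*, 0, was shared by DKO79.9 and SKO95. SKO156.6 and SKO163.5 held none of these extremes, and the share over all genes was not computed. Among DKO lines, DKO79.9 was highest for *Gata3*, DKOTu3 for *Runx1*, and DKO713 lowest for *Gata3*.

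**Figure D4:**
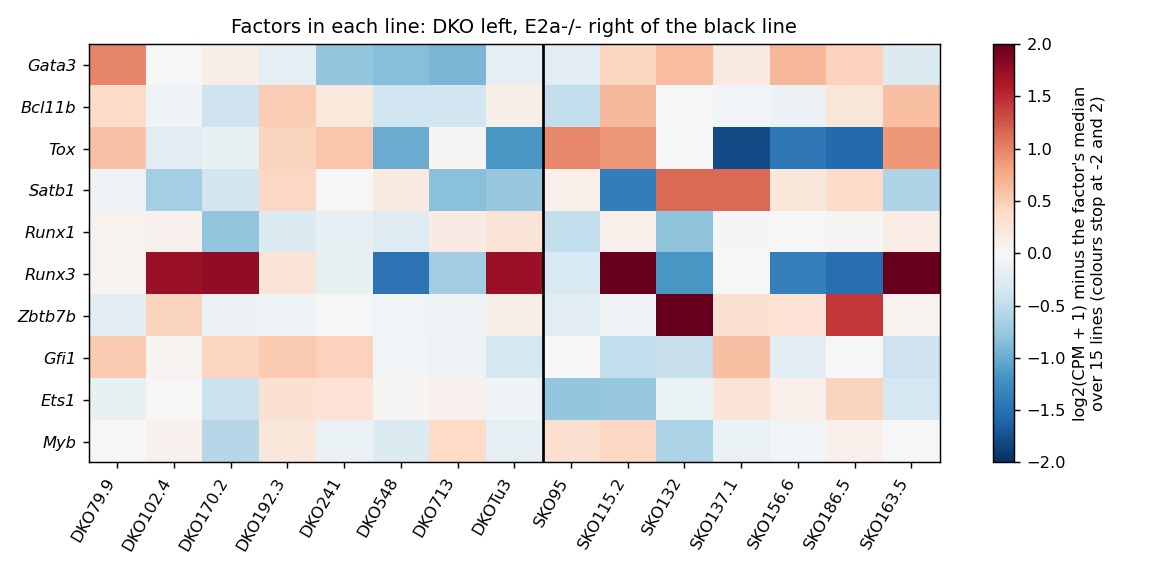
Each factor in each line as log2(CPM + 1) minus its median over the 15 lines, from blue (lower) to red (higher), with colours stopping at -2 and 2; DKO lines are left of the black line and E2a-/- lines right. Runx3 is past the upper colour limit in SKO115.2 and SKO163.5, and Zbtb7b in SKO132. Runx3 is also red in DKO102.4, DKO170.2 and DKOTu3, at 1.72, 1.78 and 1.70. Tox is bluest in SKO137.1, SKO156.6 and SKO186.5 and also blue in DKO548 and DKOTu3.

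The lines SKO115.2 and SKO163.5 were singled out after their *Runx3* values were seen. Over all listed genes they had a rank correlation of 0.969. Among pairs of lines within a genotype only SKO156.6 with SKO186.5 had a higher one, 0.987. Whether their shared values go with *Runx3* or with this likeness was not tested. The 2 lines shared further high values, which are given as a description without a test. *Tox2*, a paralog of *Tox*, had 252 and 147 CPM in them and at most 4.42 in the other 13 lines. *Ccr9*, the receptor for the thymic chemokine CCL25, had 703 and 447 CPM against at most 255. The genes of the T cell surface proteins CD2 and CD5 were also highest there, *Cd2* with 203 and 105 CPM against at most 63.4, and *Cd5* with 21.2 and 15.2 against at most 13.2. *Ccr7* (87.4 and 19.03 CPM against at most 7.63) and *Klf2* (77.7 and 15.6 against at most 11.7), which act in the exit and homing of mature thymocytes, followed the same order. *S1pr1*, the receptor of thymic exit, did not: it had 36.8 CPM in SKO115.2 but 4.41 in SKO163.5, below DKO102.4 at 13.5. The thymocyte genes *Il7r* and *Rag1* did not follow it either. *Il7r* had 2.12 and 0.538 CPM in the pair and up to 262 in the other lines, and *Rag1* had 206 and 654 CPM against up to 2228. *Cbfb*, the partner of all RUNX proteins, had 282 and 256 CPM against at most 250.2, and *Lef1* 1558 and 1277 against at most 1094. *Cd8a*, the coreceptor gene that RUNX3 is known to favour, had 290.1 and 144 CPM in them, but DKOTu3 had 299, DKO102.4 had 272 and SKO137.1 had 196, so it did not set the pair apart. *Cd4*, which RUNX3 is known to silence, had 0.570 and 5.38 CPM in them. In the others it ran from 0.412 to 44.2 CPM, with a median of 8.45. DKO79.9 was the lowest, and SKO132, SKO95, DKOTu3 and DKO192.3 lay between the values of the pair, so low *Cd4* did not set it apart either.

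**Figure D5:**
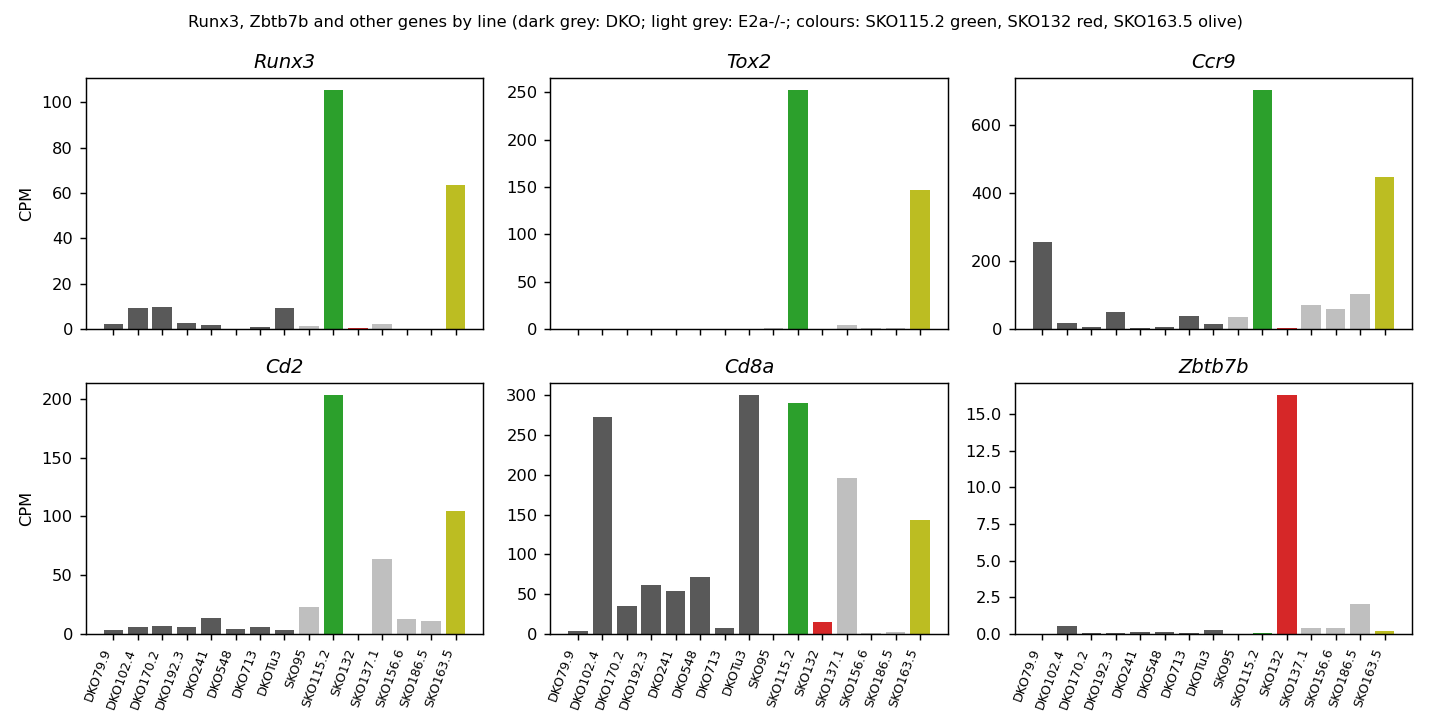
CPM of Runx3, Tox2, Ccr9, Cd2, Cd8a and Zbtb7b in each of the 15 lines; each bar is 1 line, dark grey for DKO, light grey for E2a-/-, with SKO115.2 in green, SKO132 in red and SKO163.5 in olive. The green and olive bars are the 2 highest for Runx3, Tox2, Ccr9 and Cd2 but not for Cd8a, and the red bar alone stands out for Zbtb7b.

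Whether the factors varied together was examined over the 15 lines for all 45 pairs on log2(CPM + 1) values, with permutation p-values and Benjamini-Hochberg adjustment over the 45. None reached an adjusted p under 0.05. The lowest was that of *Satb1* with *Runx3*, with Pearson's r = -0.69 (permutation p = 0.00356, adjusted p = 0.160) and Spearman's rho = -0.58 (permutation p = 0.0258, adjusted p = 0.291). Without the 2 lines farthest from the median of *Satb1*, SKO115.2 and SKO137.1, r was -0.63, and without those farthest for *Runx3*, SKO115.2 and SKO163.5, it was -0.53. Within the genotypes r was -0.46 for DKO lines (exact permutation p = 0.239) and -0.83 for *E2a*-/- lines (exact permutation p = 0.0258). Without DKO713 alone it was -0.79 with an adjusted p of 0.0270 by permutation, the only pair called when any 1 line was left out.

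At an unadjusted permutation p under 0.05 there were 6 of the 45 pairs by Pearson's r and 4 by Spearman's rho. The lowest by rho was *Satb1* with *Runx1*, with rho = -0.69 (permutation p = 0.00642, adjusted p = 0.289) and r = -0.49 (permutation p = 0.0672). Its r was -0.46 in DKO lines and -0.54 in *E2a*-/- lines. *Tox* with *Zbtb7b* had rho = -0.64 (permutation p = 0.0129) but r = -0.18. *Runx3* with *Ets1* had r = -0.59 (permutation p = 0.0203), and -0.30 without SKO115.2 and SKO163.5. *Tox* with *Ets1* had r = -0.60 (permutation p = 0.0188, adjusted p = 0.273) and rho = -0.60 (permutation p = 0.0211, adjusted p = 0.291), and r was -0.45 without SKO137.1 and SKO186.5. Its 2 genotypes had opposite signs, with r = -0.94 in *E2a*-/- lines (exact permutation p = 0.00575) and 0.30 in DKO lines (exact permutation p = 0.478), and the difference between them was not tested. *Runx1* with *Myb* had r = 0.58 (permutation p = 0.0243, adjusted p = 0.273) and rho = 0.41 (permutation p = 0.125, adjusted p = 0.453), and it rested on DKO170.2 and SKO132, without which r was -0.05. *Bcl11b* with *Runx3* had r = 0.54 (permutation p = 0.0386, adjusted p = 0.300) and rho = 0.40 (permutation p = 0.141, adjusted p = 0.453), and it rested on SKO115.2 and SKO163.5, without which r was 0.05. *Satb1* with *Zbtb7b* had r = 0.53 (permutation p = 0.0399, adjusted p = 0.300) and rho = 0.32 (permutation p = 0.239), and r was 0.14 without SKO132 and SKO186.5. Its r was 0.58 in *E2a*-/- lines but -0.46 in DKO lines. The pair that oppose each other in the CD4 and CD8 choice, *Runx3* and *Zbtb7b*, was not among the 6.

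The genes whose levels followed each factor most closely were named as the 2 with the highest Pearson r over the 15 lines among the 9707 genes averaging 5 CPM or more, as a description. The points share their libraries and depth. *Satb1* was followed by *Ssbp2* (r = 0.94), which encodes a single-stranded DNA binding protein, and *Tbc1d24* (0.82). *Gata3* was followed by *Itm2c* (0.90) and *Dnajc24* (0.89), *Runx1* by *Tigar* (0.92) and *Prdm4* (0.88), and *Ets1* by the phosphodiesterase gene *Pde10a* (0.90) and *Nebl* (0.88). *Bcl11b* was followed by *Depdc1b* (0.90) and the telomerase gene *Tert* (0.85). *Tox* was followed by *Maco1* (0.87) and *Exoc6* (0.86), *Gfi1* by *Sh3glb2* (0.82) and *Coasy* (0.81), and *Myb* by *Spin1* (0.86) and *Elavl4* (0.84). For *Runx3* they were *Gimap6* (0.91), a GTPase gene of mature lymphocytes, and *Rasgrp4* (0.88), which fell to 0.66 and 0.53 without SKO115.2 and SKO163.5. For *Zbtb7b* they were *Ak4* (0.95) and *Dnajc6* (0.90), which fell to 0.55 and 0.13 without SKO132 and SKO186.5. For *Myb*, *Spin1* and *Elavl4* fell to 0.65 and 0.61 without DKO170.2 and SKO132. For *Ets1*, *Nebl* fell to 0.70 without SKO95 and SKO115.2. Each other r stayed at 0.788 or above without the 2 lines farthest from the member's median.

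Of 16 paralogs and partners of the factors, 13 were listed in the table, and limma called 0 at 0.01. At an unadjusted limma p under 0.05, 0 were higher and 2 lower in DKO lines. *Tox2* had a log2 fold change of -2.81 (SE 1.05, adjusted p = 0.371 in limma) and was called under 2 of 28 other settings, and its high values are those of SKO115.2 and SKO163.5 above. *Elf1*, an ETS-family factor, had 135 ± 23.2 CPM in DKO and 185.7 ± 50.0 CPM in *E2a*-/- lines, with a log2 fold change of -0.43 (SE 0.17, adjusted p = 0.386 in limma). *Gfi1b*, the paralog of *Gfi1*, had a log2 fold change of 1.42 (SE 0.67) and *Cbfb* one of -0.18 (SE 0.09), with adjusted p-values of 0.502 and 0.508 in limma. The median log2 fold change of the 13 was -0.11, against -0.02 for all genes.

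Of 16 other factors of the T lineage and Notch pathway, 14 were listed and limma called 0 at 0.01, with 1 higher and 1 lower at an unadjusted p under 0.05. *Tcf7*, which encodes TCF1, a relative of LEF1, had 2862 ± 461 CPM in DKO and 1878 ± 487 CPM in *E2a*-/- lines, with a log2 fold change of 0.66 (SE 0.20, adjusted p = 0.241 in limma). *Lef1* was the lower one. Its log2 fold change was -2.33 (SE 0.53, adjusted p = 0.0980 in limma), and it was past the threshold of 0.01 under 5 of 28 other settings. Without SKO132 it was -2.91 (adjusted p = 4.88e-06 in limma), and without SKO132 and DKO79.9 it was -3.00 (adjusted p = 2.03e-06 in limma). The other 3 settings were array weights, the likelihood ratio test and DESeq2, with -2.72 in each. Of 11 factors of stem and progenitor cells that silence during commitment, *Tal1* alone was listed, at 0 to 2.30 CPM in DKO lines and 0 to 7.97 CPM in *E2a*-/- lines.

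All 16 genes of thymocyte stages were listed, and 0 had an unadjusted limma p under 0.05 in either direction. Their levels varied widely: *Cd8a* ran from 0.230 to 299 CPM over the 15 lines, and *Kit* from 0 to 173 CPM. Of the 11 T cell identity genes limma called 0 at 0.01, and at an unadjusted p under 0.05 *Cd3e* was higher in DKO lines by 0.46 (SE 0.20) on the log2 scale and *Cd2* was lower, at -1.96 (SE 0.79), the latter called under 2 of 28 other settings. Markers of other cells were few: 2 of 6 myeloid, 3 of 6 NK and innate lymphoid and 2 of 6 stromal and epithelial markers were listed. Their summed CPM in DKO and *E2a*-/- lines were 5.81 to 14.0 and 5.48 to 12.7 for myeloid markers, 2.12 to 106 and 3.87 to 319 for NK and innate lymphoid markers, and 0.115 to 10.3 and 0.284 to 10.7 for the erythroid marker *Epor*. For stromal and epithelial markers the sums ran from 1.91 to 415 CPM among DKO lines and from 14.8 to 408 among *E2a*-/- lines, nearly all of it *Pdgfrb*, a growth factor receptor gene, and their part in the members' values was not tested. The defining markers *Csf1r*, *Mpo*, *Ncr1*, *Eomes* and *Col1a1* were not among the genes analysed here.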

How the data were processed

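RNA-seq values of 15 lines were used, with genotypes from the labels. Per the study's methods and the submitters' processing notes, the authors trimmed reads with Trimmomatic 0.33, aligned them to mm10 with TopHat2 2.1.0, counted them with HTSeq 0.6.1 and deposited CPM values made with edgeR. Strandedness is not given in the sources used here. Antisense or overlapping genes share 0.673% to 6.26% of the exon bases of 7 members, so their reads may not be fully separated. CPM values divided by that of 1 read gave whole reads (tolerance 0.01) for 100% of values. Gene positions are printed as the table lists them, which is not on GRCm38, and merged exon lengths came from GENCODE for GRCm38. The table's width was set aside for ranking because it does not count distinct bases, a change from the plan.

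Genotypes were compared with limma 3.58.1 (R 4.3.3, variance trend, pseudocount 1, two-sided, Benjamini-Hochberg over 12545 genes, threshold 0.01) and with exact two-sided permutation over 6435 splits of the lines (smallest p 0.000155). Correlations used 100000 resamples in Python 3.11.15. Alternatives were edgeR 4.0.16 and DESeq2 1.42.0 on recovered reads, other pseudocounts (0.1 and 2), scalings and filters, a shift per chromosome, array weights and each line left out. The fits were tested on simulated data. The 10 members are all named, and of other lists up to 4 genes with the lowest unadjusted p. Members and lists were chosen with earlier results of these data known. No label says that lines come from separate mice, so p-values measure the spread between lines. Correlated genes and lines outside these rules were chosen after their values were seen. The count over a list of erythroid markers is not reported here.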

Additional observations from a re-analysis of the deposited data

Results flagged for a closer look

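In 4 of 20 groups of lines (10 factors in each of 2 genotypes) 1 line lay farther from the others than Dixon's 95% critical value allows. Chance gives about 1 in 20 for normally distributed values, and whether CPM values have that shape was not checked. The share of such groups over all genes was not computed, so the count is not read as an excess. *Gata3* in DKO79.9, the line with the fewest reads, had 343 CPM, and the other DKO lines had 91.9 to 191. *Zbtb7b* had 0.587 CPM (12 reads) in DKO102.4 against 0 to 0.263 in the other DKO lines, and 16.3 CPM in SKO132 against 0 to 2.09 in the other *E2a*-/- lines. *Gfi1* had 101 CPM in SKO137.1, where the other *E2a*-/- lines had 46.4 to 66.5.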

How the results depend on the processing

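No member was called under any of the 29 alternatives. The number of all genes called, 6 as reported, was 29 with array weights, 30 without SKO132 and DKO79.9, 19 at an adjusted p under 0.05, and 1, 155 and 177 in edgeR's quasi-likelihood test, its likelihood ratio test and DESeq2. Leaving out 1 line gave 3 to 17, with 17 without SKO132 and 10 without DKO79.9. Leaving out 1 line gave 0 to 1 called pairs. Log2 fold changes of 4 members changed sign. That of *Tox* was -0.020 with SKO156.6 and SKO186.5 averaged, -0.10 in the quasi-likelihood test, -0.12 in the likelihood ratio test, -0.11 in DESeq2 and -0.070 to 0.39 with 1 line left out. That of *Runx1* was -0.10 without SKO132 and DKO79.9 and -0.071 to 0.14 with 1 line left out. That of *Runx3* was 0.051 with a pseudocount of 0.1, 0.14 with array weights and -0.70 to 0.40 with 1 line left out, and that of *Myb* was -0.16 to 0.015 with 1 line left out. In DKO lines alone r was 0.298 for *Tox* with *Ets1* and -0.459 for *Satb1* with *Zbtb7b*. The causes were not tested. The count of 9 members with a larger SD among *E2a*-/- lines was 7 to 9 with 1 line left out. The sets without SKO132 and DKO79.9, or without SKO115.2 and SKO163.5, were chosen after seeing the data. *Zbtb7b* had 3 reads or fewer in 8 lines, so differences below that depth were not detectable. No paired analysis was possible because DKO and *E2a*-/- lines have no number in common and replicate numbers follow accession order only.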

Other observations

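*Ikzf1*, which encodes the lymphoid zinc finger factor IKAROS, was chosen after its values were seen and ran from 0.128 CPM in DKO170.2 to 1257 CPM in DKO241. DKO102.4 had 2.98 CPM and SKO132 3.86 CPM, and each other line had at least 80.6. Its relative *Ikzf3* had 3.41 CPM in SKO95 and 74.5 to 492 CPM in the other lines.

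*Zbtb16*, which encodes PLZF, a factor of innate-like lymphocytes, had 3.57 ± 5.99 CPM in DKO lines (SD, n = 8) and 24.98 ± 22.9 CPM in *E2a*-/- lines (SD, n = 7). Its log2 fold change was -2.76 (SE 0.88, adjusted p = 0.268 in limma), and it was at 0 in DKO170.2, DKO241 and SKO95. *Rora* had 304 CPM in SKO132 and 1.75 to 95.2 CPM in the other lines.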
